A study of Mus musculus with 2 samples.

Results

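The inward-rectifier potassium channel gene Kcnj10, the water channel gene Aqp4, the dystroglycan gene Dag1 and the alpha-dystrobrevin gene Dtna encode a potassium and water channel complex of Müller glia. They were found by symbol among the genes of the deposited count matrices, and all 4 were present, out of 32285 genes. No measured value was a criterion for that choice, but it was made with earlier results of these data known.

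The study took single retinal cells from mice on a B6.Cg background that carry at the Gt(ROSA)26Sor locus the allele tm9(CAG-tdTomato)Hze/J, a tdTomato reporter switched on by Cre recombinase. The mice were 14 weeks old and had received an adeno-associated virus (AAV) 8 weeks earlier. After a sort for tdTomato, transcripts were counted as unique molecular identifiers (UMIs), each standing for 1 captured transcript end. There were 2 libraries, Muller and MullerControl, with 1 library per group. Both groups share strain, age, time after injection and the sort, and the library named Muller is treated here as the test, as the other is named for a control. The cargo of the virus, the promoter that drove Cre and the number of mice behind each library are not given in the sources used here. For the test and the control, reporter-positive cells made up about 4.9% and about 10%, the sort yielded 60000 and 120000 of them, and 27000 went into each library. With 1 library per group no test between groups was possible, so every interval given here covers counting error only.

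Müller glia span the retina from the vitreous to the photoreceptors and take up the potassium that active neurons release. Kir4.1, the product of Kcnj10, carries much of their potassium conductance, and aquaporin-4, the product of Aqp4, is their main water channel. Both are concentrated in the endfeet at the vitreous and around vessels. There dystroglycan, a laminin receptor, is linked through dystrophin, syntrophins and alpha-dystrobrevin to the channels, and this scaffold is known for holding them in place.

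Kcnj10 (ENSMUSG00000044708) lies on chromosome 1 from 172341210 to 172374085 on the plus strand and Dag1 (ENSMUSG00000039952) on chromosome 9 from 108204634 to 108263958 on the minus strand, in GENCODE's annotation of GRCm38. Of the 4 genes, 2 matched the RefSeq promoter table (build GRCm38.p6), whose windows run from 250 bases before the transcript start to 50 after it. They are printed because these 2 genes were found in different ranges of cell classes, one mostly in Müller barcodes and one in neurons as well: Kcnj10 at chr1:172340960-172341259 (plus) and the first Dag1 entry at chr9:108263909-108264208 (minus), 5′ to 3′, with CCAAT boxes (CCAAT or its reverse ATTGG) and GC boxes (GGGCGG or CCGCCC) in capitals.
Kcnj10: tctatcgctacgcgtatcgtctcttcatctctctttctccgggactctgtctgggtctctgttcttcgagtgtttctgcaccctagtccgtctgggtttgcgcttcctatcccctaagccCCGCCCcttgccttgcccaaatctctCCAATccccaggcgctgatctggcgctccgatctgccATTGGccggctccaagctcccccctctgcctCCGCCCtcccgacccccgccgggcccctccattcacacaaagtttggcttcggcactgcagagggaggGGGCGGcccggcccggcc
Dag1: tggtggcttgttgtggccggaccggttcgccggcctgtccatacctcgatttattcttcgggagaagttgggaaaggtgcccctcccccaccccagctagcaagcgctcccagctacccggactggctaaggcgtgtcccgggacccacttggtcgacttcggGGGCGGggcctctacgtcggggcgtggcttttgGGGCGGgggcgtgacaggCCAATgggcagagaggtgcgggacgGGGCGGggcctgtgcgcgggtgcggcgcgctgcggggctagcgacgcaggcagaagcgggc

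Both windows were rich in G and C, at 63.7% for Kcnj10 and 69.7% for Dag1 against a median of 52.7% over all promoters of the table. The Kcnj10 window held 2 CCAAT boxes and 3 GC boxes, and the Dag1 window held 1 CCAAT box and 3 GC boxes. On either strand, a CCAAT box occurred in 37.4% and a GC box in 35.7% of the 32851 promoters. Neither window held the SOX core letters ACAAT (in 31.0% of promoters) or a TATA box written as TATAAA (in 13.6%), on either strand. A match of letters describes the window and is not evidence of a binding site.

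Aqp4 (ENSMUSG00000024411) and Dtna (ENSMUSG00000024302) both lie on chromosome 18 of GRCm38, from 15389496 to 15410982 (minus) and from 23415135 to 23659715 (plus). An antisense gene overlaps Aqp4 (AC133525.2, with 5 UMIs in Müller barcodes of Muller and 8 in MullerControl) and another overlaps Dtna (Gm47898, 0 UMIs in both).

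The matrices held 12316 barcodes with 25622379 UMIs in Muller and 11309 with 23549118 in MullerControl. After filters on gene number, mitochondrial share and doublet score, 10757 and 9538 barcodes were kept, and 40 barcode sequences occurred in both libraries. A marker gate that used none of the 4 genes put 939 barcodes (8.73%) of Muller and 600 (6.29%) of MullerControl in the Müller class, and left 19.8% and 6.91% unassigned. All 17 Müller markers had UMIs there, led by Glul in Muller and Apoe in MullerControl, and summed to 40170 and 48877 counts per 1000000 UMIs (CPM). Rod markers in the same barcodes summed to 5917 and 4247 CPM, with all 13 of 13 detected. Astrocytes, the other glia that carry both channels, were not represented by any gated barcode. Their 7 markers summed to 65.3 CPM (Pax2 at 0) and 84.9 CPM (Slc39a12 at 0) in the Müller class.

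Most UMIs of Aqp4 and Kcnj10 lay in Müller barcodes. All 4 genes were highest in the Müller class, of 6 classes with at least 50 barcodes in each library, in both libraries, as were 17.7% of the 10862 genes with at least 20 UMIs in Müller barcodes. The summed Aqp4 level in Müller barcodes was 988 CPM in Muller (95% Poisson interval 944 to 1035, from 1846 UMIs) and 1040 CPM in MullerControl (992 to 1090, from 1728 UMIs). Kcnj10 stood at 200.2 CPM in Muller (180 to 222, 374 UMIs) and 257 CPM in MullerControl (233 to 283, 427 UMIs). Each UMI tags 1 transcript end whatever the transcript's length, so length does not enter these levels. How well each gene's transcripts were captured was not measured, so comparisons between genes here are of counted UMIs. Aqp4 had the most UMIs of the 4. Müller barcodes held 80.4% of all Aqp4 UMIs of kept barcodes in Muller (78.8 to 82.0, exact binomial interval) and 93.5% in MullerControl (92.2 to 94.5). For Kcnj10 they held 76.2% (72.1 to 79.9) and 87.0% (83.7 to 89.8). A further 8.50% of Aqp4 UMIs and 11.6% of Kcnj10 UMIs of Muller lay in barcodes the gate left unassigned.

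The next class lay far below. Aqp4 was 55.1-fold higher in Müller barcodes than in the next class of Muller (rods, 17.9 CPM) and 67.4-fold higher than in the next class of MullerControl (amacrine cells, 15.4 CPM). Kcnj10 was 35.2-fold above rods in Muller (5.69 CPM) and 51.3-fold above the microglia or macrophage class in MullerControl (5.01 CPM, from 4 UMIs). Below Müller, the intervals of classes next to each other in rank overlapped for both genes, while some classes further apart did not overlap. Aqp4 in cones, at 4.35 CPM (1.19 to 11.1) in Muller and 0.686 CPM (0.083 to 2.48) in MullerControl, lay below bipolar cells, at 13.7 CPM (11.5 to 16.3) and 6.02 CPM (3.73 to 9.20).

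In rods, the low Aqp4 counts differed between the libraries in the same direction as other glial transcripts. Aqp4 in rods was 17.9 CPM in Muller (14.3 to 22.3) against 4.29 in MullerControl (3.07 to 5.85). In the same rods the glial transcripts Glul, Rlbp1 and Slc1a3 together stood at 372 and 145 CPM. Per 1000 UMIs of those 3 genes, Aqp4 counted 78.3 and 68.6 in Müller barcodes and 48.2 and 29.5 in rods, so it was below its Müller ratio in the rods of both libraries. In amacrine barcodes Aqp4 was at 15.4 CPM in both libraries, while the 3 glial transcripts stood at 319 and 271 CPM. Kcnj10 counted 15.9 and 16.9 per 1000 in Müller barcodes and 15.3 and 24.4 in rods, where its own counts were 26 and 33 UMIs. The part of free glial RNA in these rod counts was not tested.

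Dag1 had a different distribution: Müller glia led, but rods, cones, bipolar and amacrine cells all held it. In Müller barcodes it stood at 114 CPM in Muller (99.2 to 130, 213 UMIs) and 131 CPM in MullerControl (114 to 149, 217 UMIs). Over those 4 neuron classes the lowest level was 17.9 CPM, in rods of Muller, and the highest 29.4 CPM, in cones of Muller. The 13 horizontal-gated barcodes of Muller held 1 Dag1 UMI and the 2 of MullerControl held 0, too few for a level. Rods of MullerControl held 219 Dag1 UMIs, slightly more than the Müller barcodes, because rods were 6220 barcodes there. Müller barcodes accounted for only 31.3% (27.9 to 35.0) and 32.7% (29.1 to 36.4) of Dag1 UMIs. A further 14.6% and 5.57% lay in barcodes the gate left unassigned. The level in Müller barcodes was 3.88-fold and 4.95-fold that of cones, the next class in both libraries.

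Relative to the glial transcripts, Dag1 was higher in rods and cones than in Müller barcodes. Per 1000 UMIs of Glul, Rlbp1 and Slc1a3, Dag1 counted 9.04 and 8.61 in Müller barcodes. The same ratio was 48.2 and 162 in rods, and 138 and 395 in cones. Whether free RNA contributed to the neuronal counts was not tested. In microglia or macrophages Dag1 was at 7.93 CPM from 3 UMIs in Muller and 15.02 CPM from 12 UMIs in MullerControl. The 6 pericyte-gated barcodes of MullerControl held 4 Dag1 UMIs, too few for a level.

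Dtna, whose product is the syntrophin-binding alpha-dystrobrevin, was highest in Müller glia and next in amacrine cells, of the classes with at least 50 barcodes in each library. Müller barcodes held 32.7% (29.4 to 36.2) of Dtna UMIs in Muller and 55.8% (51.1 to 60.4) in MullerControl. Barcodes the gate left unassigned held 24.6% and 10.0%, at 68.6 and 45.2 CPM, so the classes of many Dtna UMIs are not known. In Müller barcodes it stood at 134 CPM in Muller (118 to 152, 250 UMIs) and 154 CPM in MullerControl (136 to 174, 256 UMIs). Amacrine barcodes followed at 69.7 CPM (59.3 to 81.5, 158 UMIs) and 73.3 CPM (55.5 to 94.9, 57 UMIs). Müller glia were thus 1.92-fold and 2.10-fold above amacrine cells, a much smaller step than for the channels, and in neither library did the intervals of the 2 classes overlap. Bipolar cells held 13.5 and 17.5 CPM and cones 8.70 and 8.57 CPM. Rods were lowest of these 4 neuron classes at 4.81 and 1.40 CPM. Per 1000 UMIs of the 3 glial transcripts, Dtna counted 10.6 and 10.2 in Müller barcodes against 219 and 270 in amacrine barcodes, while rods, at 12.9 and 9.59, were close to the Müller ratio. In Muller the 13 horizontal-gated barcodes held 12 Dtna UMIs, or 110 CPM (56.99 to 193).

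**Figure D1:**
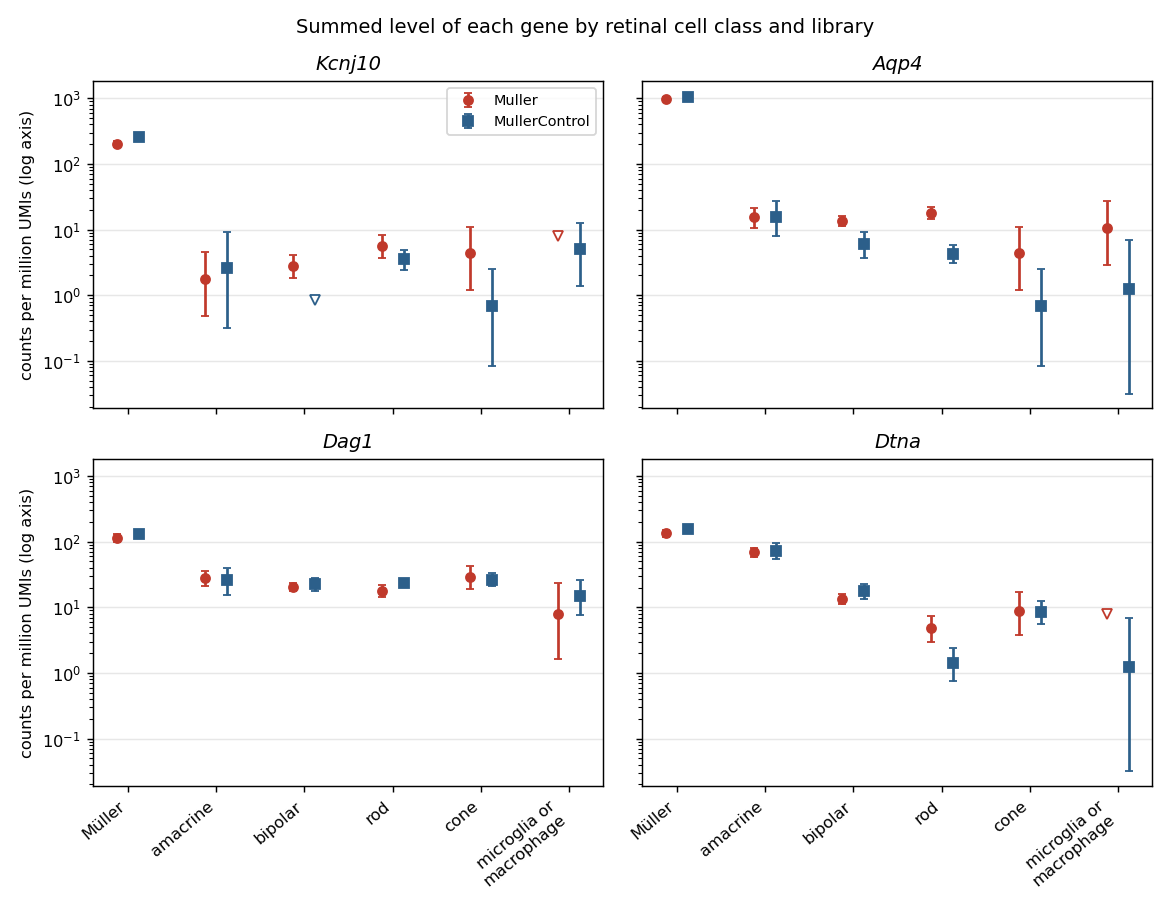
Summed level of each gene in counts per 1000000 UMIs (log axis) by marker-gated cell class, with red circles for Muller and blue squares for MullerControl. Bars are 95% Poisson intervals, and an open triangle marks the level of 3 counts where no UMI was seen. Aqp4 and Kcnj10 stand far above all other classes in Müller barcodes, Dag1 runs near 18 to 29 CPM through the 4 neuron classes shown, and Dtna has its second level, 69.7 and 73.3 CPM, in amacrine cells.

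The plot of levels by class shows the 2 channel genes with a single high class, the dystroglycan gene on a neuronal plateau and the dystrobrevin gene with a pair of high classes. The profiles over the 12 sums of class and library were compared by Pearson correlation of log2(CPM + 10), as a description, since these sums share libraries and depth. Kcnj10 and Aqp4 had r = 0.97, Kcnj10 and Dag1 0.93, and Aqp4 and Dag1 0.91. Dtna was least like the channels, with r = 0.72 against Kcnj10 and 0.79 against Aqp4. Among 12764 genes, the 5 with the profile most like Kcnj10 were Nrarp, Cd24a, Hepacam, Gldc and Qrfpr. The 5 closest to Aqp4 were Lhx2, Col9a3, Cyp2j6, Abca8a and Gpx8. Kremen1, Lrrc42, Tmem14a, Tyw5 and Utp14b were closest to Dag1. Adk, Xpr1, Rab11fip4, Adam23 and Cntfr were closest to Dtna. The highest r was 0.996 for Kcnj10 (Nrarp) and Aqp4 (Lhx2), 0.978 for Dag1 (Kremen1) and 0.988 for Dtna (Adk).

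In single Müller barcodes the 4 genes were detected sparsely. A UMI of Aqp4 was present in 58.3% of Müller barcodes of Muller and 64.3% of MullerControl, of Kcnj10 in 29.2% and 42.5%, of Dag1 in 19.6% and 26.5%, and of Dtna in 21.1% and 29.2%, at median depths of 1559 and 1897 UMIs. Rods, which should lack the channels, had Aqp4 in 2.23% and 0.563% and Kcnj10 in 0.707% and 0.482% of barcodes, at medians of 1181 and 1391 UMIs. To compare at equal depth, each barcode was thinned to 1000 UMIs, which left out 337 of the 939 and 178 of the 600 Müller barcodes. The Aqp4 share was then 57.8% (53.7 to 61.8) and 55.9% (51.0 to 60.7) and the Kcnj10 share 18.6% (15.6 to 21.9) and 22.3% (18.4 to 26.6). For Dag1 the shares were 12.1% (9.63 to 15.004) and 9.95% (7.27 to 13.2), and for Dtna 15.1% (12.3 to 18.2) and 14.7% (11.5 to 18.4). Thus the libraries' intervals overlapped for all 4 genes once depth was equal. Thinned rods had Aqp4 in 1.49% and 0.342% of barcodes and Kcnj10 in 0.578% and 0.297%.

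Of the thinned Müller barcodes, 25.6% in Muller and 28.7% in MullerControl had no UMI of any of the 4 genes, and 1 and 2 barcodes had all 4. Aqp4 and Kcnj10 were seen together in 10.5% and 13.5%, where the product of their separate shares is 10.8% and 12.5%. At this depth the pair was therefore not detectably joined or separated beyond what those shares give.

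Between the libraries, none of the 4 genes differed by 1.5-fold in Müller barcodes. Over all 10862 genes with at least 20 UMIs in the class, 6.33% were at least 1.5-fold higher and 5.95% at least 1.5-fold lower in Muller, with a median log2 ratio of -0.04, so a count of 0 of 4 is near that background. The log2 ratio of Muller over MullerControl was -0.36 for Kcnj10 (95% interval -0.56 to -0.16), -0.07 for Aqp4 (-0.17 to 0.02), -0.20 for Dag1 (-0.48 to 0.08) and -0.20 for Dtna (-0.46 to 0.05). Only the Kcnj10 interval left out 0. The Müller markers as a list were lower in Muller too, with a median log2 ratio of -0.18 and 2 of 17 above 0. Per UMI of those markers, the Kcnj10 ratio was -0.076 (-0.28 to 0.13), and Aqp4 turned to 0.21 (0.11 to 0.31), Dag1 to 0.088 and Dtna to 0.080. With each barcode thinned to 1000 UMIs the ratio was -0.55 for Kcnj10 (-0.92 to -0.17), 0.22 for Dag1 (-0.30 to 0.79) and 0.079 for Dtna (-0.37 to 0.55). The direction for Dag1 and Dtna was thus not settled, and the Kcnj10 ratio was below 0 on all 3 scales but near it per marker UMI. The rod markers, at 5917 against 4247 CPM in these barcodes, went the other way, and their part in the result was not tested.

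The composition of the Müller class by Malat1, a long RNA retained in the nucleus, also differed between the libraries. Barcodes with under 2% of their UMIs from Malat1 (Malat1-poor) were 324 of 939 in Muller and 247 of 600 in MullerControl, or 34.5% and 41.2%. Barcodes at 10% or more (Malat1-rich) were 519 and 274, or 55.3% and 45.7%. Within the Malat1-rich barcodes the log2 ratio between libraries was -0.18 for Kcnj10 (-0.41 to 0.06), 0.01 for Aqp4 (-0.09 to 0.12), -0.05 for Dag1 (-0.36 to 0.26) and -0.15 for Dtna (-0.44 to 0.14). All 4 intervals held 0 there. Ratios within ranges of the Malat1 share are per UMI other than Malat1. In the Malat1-poor barcodes Kcnj10 had a ratio of -0.54 (-1.25 to 0.13), so its ratio was below 0 in the poor and the rich barcodes alike. In the 96 and 79 barcodes between the limits, Kcnj10 had a ratio of -0.79 (-1.42 to -0.24) and Dag1 of -0.77 (-1.72 to 0.01). Those barcodes differed most in depth, with medians of 756 UMIs in Muller and 3735 in MullerControl. Their median Malat1 share differed too, at 3.62% in Muller and 7.82% in MullerControl, so this range did not match the libraries by Malat1. The parts of depth and of Malat1 share in that result were not tested.

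**Figure D2:**
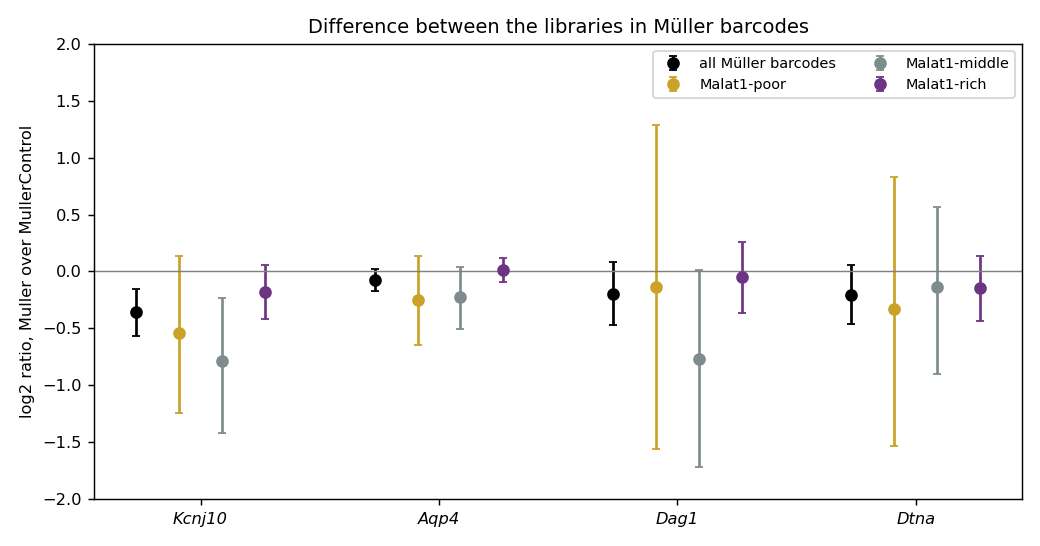
Log2 ratio of Muller over MullerControl for each gene in all Müller barcodes (black) and within the Malat1-poor (ochre), Malat1-middle (grey) and Malat1-rich (violet) barcodes, with 95% counting intervals. The black ratios are per UMI of any gene and the others per UMI other than Malat1. The violet points sit between -0.18 and 0.01 and all their intervals cross 0, while the black Kcnj10 interval, -0.56 to -0.16, does not.

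The plot of the ratios between libraries shows the Kcnj10 value of all Müller barcodes at the low side and the Malat1-rich values of all 4 genes nearer to 0. The scales differ, as only the ratios by Malat1 share leave Malat1 out of the UMIs. With Malat1 and mitochondrial UMIs left out, the Kcnj10 ratio of all Müller barcodes was -0.31 (-0.51 to -0.10). The plot also shows how wide the Dag1 and Dtna intervals are in the Malat1-poor barcodes, where both genes had 10 to 15 UMIs per library.

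Within Müller barcodes all 4 genes were higher where Malat1 was high, in both libraries. Levels here are UMIs per 1000000 UMIs other than Malat1. Aqp4 stood at 404 in the Malat1-poor and 1368 in the Malat1-rich barcodes of Muller, and at 481 and 1356 in MullerControl. Dag1 stood at 37.4 and 163 in Muller and at 41.1 and 168 in MullerControl. The Dtna levels were 48.6 and 184 in Muller and 61.7 and 204 in MullerControl. Kcnj10 had the smallest step, from 123 to 268 in Muller and from 181 to 303 in MullerControl. For every gene and library the Poisson intervals of the poor and the rich barcodes were apart.

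On the log2 scale the ratio of rich over poor was 1.08 for Kcnj10 (0.60 to 1.68) in Muller and 0.72 (0.28 to 1.23) in MullerControl. For Aqp4 it was 1.75 (1.48 to 2.06) and 1.48 (1.22 to 1.78). For Dag1 it was 1.99 (1.21 to 3.21) and 1.91 (1.12 to 3.12). For Dtna it was 1.82 (1.11 to 2.85) and 1.64 (0.97 to 2.59). All 4 genes were thus at least 1.5-fold higher in both libraries, where 39% of 9045 genes in Muller and 47% of 8391 in MullerControl were, at median log2 ratios of 0.27 and 0.48. Another 19.8% and 15.8% of genes were at least 1.5-fold lower. The count of 4 of 4 is to be read against those shares, since a higher level with more Malat1 was common. Kcnj10 lay at the 75.7 and 58.1 percentile of all measured genes, and Aqp4, Dag1 and Dtna between the 81.0 and the 92.4 percentile. The Müller markers were split: of 17, 8 were at least 1.5-fold higher and 3 lower in Muller, and 9 and 2 in MullerControl. The glutamine synthetase gene Glul was at -0.13 and 0.27 and the retinoid-binding protein gene Rlbp1 at -0.55 and -0.27, whereas the glutamate transporter gene Slc1a3 was at 1.79 and 1.87, close to Aqp4.

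Several other measures moved with the Malat1 share. The median depth was 721 UMIs in Malat1-poor and 2319 in Malat1-rich barcodes of Muller, and 852 and 4545 in MullerControl. The median mitochondrial share was 2.68% and 0.726% in Muller and 4.91% and 0.546% in MullerControl. All 13 rod markers were at least 1.5-fold lower in the Malat1-rich barcodes of both libraries, and their summed share was 1.41% in poor and 0.435% in rich barcodes of Muller, and 0.994% and 0.262% in MullerControl. The summed share of Müller markers was 4.04% and 3.91% in Muller and 4.42% and 4.98% in MullerControl. This share is of all UMIs, Malat1 included, unlike the ratios of the 4 genes. Per UMI of the Müller markers, the Kcnj10 ratio of rich over poor was 0.84 (0.35 to 1.44) in Muller and 0.31 (-0.12 to 0.83) in MullerControl. Per UMI other than Malat1 it was 1.08 and 0.72, so on that scale the marker sum was itself higher in the rich barcodes. The ratios of all 4 genes stayed above 0 per marker UMI in both libraries. The part of RNA quality and rod transcripts in the result was not tested.

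At equal depth the difference in summed level held for Aqp4, Dag1 and Dtna, and for Kcnj10 in MullerControl but not in Muller. After thinning to 1000 UMIs, 64 of 324 Malat1-poor barcodes of Muller and 96 of 247 of MullerControl were deep enough. Kcnj10 then had a log2 ratio of rich over poor of 0.20 (-0.55 to 1.2497) in Muller and 1.03 (0.33 to 1.94) in MullerControl. It was present in 20.3% (11.3 to 32.2) of thinned poor and 18.2% (14.9 to 21.9) of thinned rich barcodes of Muller. Aqp4 kept ratios of 1.38 (0.90 to 2.01) and 1.65 (1.21 to 2.18), with 25.0% of thinned poor against 62.0% of thinned rich barcodes holding a UMI in Muller and 26.0% against 64.3% in MullerControl. The ratios of Dag1 were 1.97 (0.63 to 5.60) and 3.04 (1.43 to 9.34), and those of Dtna 1.28 (0.26 to 3.19) and 3.04 (1.68 to 6.68). The thinned poor barcodes held only 1 or 2 Dag1 UMIs and 5 or 2 Dtna UMIs, so the size of those 2 steps was poorly fixed at this depth. In Muller, Dag1 was present in 3.13% (0.38 to 10.8) of thinned poor and 13.2% (10.4 to 16.5) of thinned rich barcodes. Dtna was present there in 7.81% (2.59 to 17.3) and 16.0% (12.9 to 19.5). The intervals of these shares thus overlapped in Muller for both genes, and in MullerControl they did not.

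**Figure D3:**
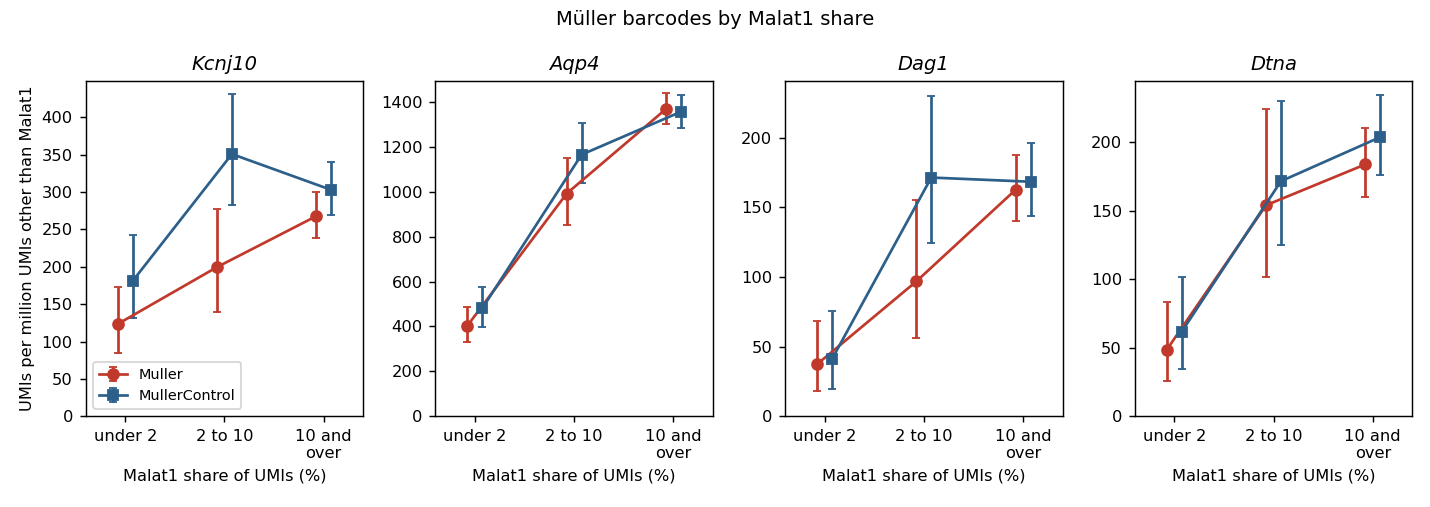
UMIs of each gene per 1000000 UMIs other than Malat1 (linear axis from 0) in Müller barcodes with under 2%, 2 to 10%, and 10% or more of their UMIs from Malat1, with 95% Poisson intervals. Red circles are Muller and blue squares MullerControl. Aqp4 goes from 404 and 481 to 1368 and 1356, and the 2 libraries differ most in the middle bin for Kcnj10.

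The plot of levels by Malat1 share shows that in MullerControl most of the step lay below the 2% to 10% range, where Kcnj10 stood at 351 and Dag1 at 171, at or above their Malat1-rich levels. In Muller the same range held intermediate levels, 199.5 for Kcnj10 and 96.9 for Dag1. The barcodes of that range were unlike, with a median Malat1 share of 3.62% in Muller and 7.82% in MullerControl. Their median depth was 756 and 3735 UMIs. The part of either in where the step lay was not tested.

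Finer ranges of the Malat1 share, chosen after these values had been seen, separated the genes further. Between 10% and under 30% Malat1, Kcnj10 in Muller stood at 261, 288 and 260 per 1000000 in steps at 15% and 20%, so it was level there. Aqp4 stood at 1320, 1546 and 1392, and then at 690 (503 to 923) in the 56 barcodes at 30% or more. The Aqp4 level of those 56 barcodes was below that of each of the 3 preceding ranges beyond the counting intervals. Their median depth was 1680 UMIs, against 3976 at 10% to under 15%. MullerControl had 7 barcodes at 30% or more, too few to compare. Dtna went the other way, from 142 (109 to 182) at 10% to under 15% to 172 and 244 (192 to 306) at 20% to under 30% in Muller. In MullerControl the same ranges held 191, 203 and 289 (183 to 433), where the intervals of the first and last overlapped. Depth dropped along with these ranges, and its part in the Dtna levels was not tested.

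Unsupervised clusters split the same Müller barcodes into a Malat1-poor cluster and a pair of Malat1-rich ones of different depth. The Malat1-poor cluster (375 and 246 Müller barcodes) held Aqp4 at 402 and 481 per 1000000. The shallower rich cluster (352 and 120 barcodes, median 1855 and 1821 UMIs) had Kcnj10 at 309 and 451 and Dtna at 254 and 288. In the deeper one (207 and 234 barcodes, median 4152 and 5071 UMIs) Kcnj10 was at 238 and 287 and Dtna at 139 and 179. Aqp4 was ordered the other way in Muller, at 1230 (1136 to 1330) in the shallower and 1436 (1353 to 1524) in the deeper cluster. In MullerControl its intervals overlapped, at 1237 (1084 to 1405) and 1331 (1261 to 1403). The Kcnj10 intervals of these clusters overlapped in Muller, at 263 to 361 and 204 to 275. These genes were among those clustered, so the values are a description only.

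**Figure D4:**
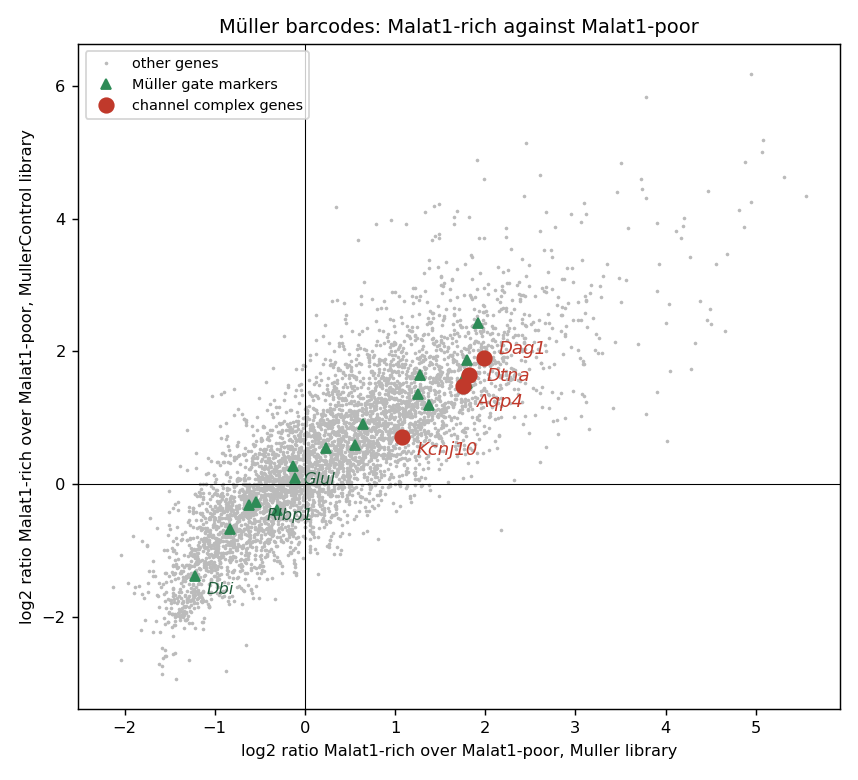
Log2 ratio of Malat1-rich over Malat1-poor Müller barcodes for each gene measured in both libraries, Muller on the horizontal and MullerControl on the vertical axis. Red circles are the 4 channel complex genes, green triangles the Müller gate markers and grey dots all other genes. Aqp4, Dag1 and Dtna lie together near 1.5 to 2 on both axes, Kcnj10 lies lower, and Dbi, at -1.21 and -1.38, is the lowest marker.

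The plot of all genes' ratios places Aqp4, Dag1 and Dtna on the high side of both libraries, as it does the orphan receptor gene Gpr37 (1.91 and 2.42). Kcnj10 lay nearer the middle of the genes, at the 75.7 percentile in Muller and the 58.1 percentile in MullerControl. All 4 were apart from Dbi, an acyl-CoA-binding protein gene that was higher in Malat1-poor barcodes.

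The wider scaffold was described by a list of 16 further dystrophin complex genes, of which 9 had at least 20 UMIs in Müller barcodes. The dystrophin gene Dmd had 140 and 132 CPM in Müller barcodes but 943 and 908 CPM in rods and 871 and 924 CPM in cones. UMIs of the gene as a whole were thus highest in photoreceptors. Its transcript forms were not counted apart, so the level of any single form in Müller glia is not known. Its homologue utrophin (Utrn, 86.2 and 85.5 CPM) and beta-1-syntrophin (Sntb1, 84.1 and 98.7 CPM) were both highest in Müller barcodes. Beta-sarcoglycan (Sgcb) stood at 79.8 and 82.5 CPM. Sarcospan (Sspn), at 5.89 and 7.22 CPM from 11 and 12 UMIs, was at the edge of detection. Of the 9 measured genes, 4 were highest in Müller barcodes in both libraries, beside 17.7% of all measured genes.

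Between the libraries, where 6.33% of all measured genes were at least 1.5-fold higher in Muller and 5.95% lower, 1 of the 9 genes was at least 1.5-fold higher in Muller and 0 were lower (median log2 ratio -0.05). The gene was beta-2-syntrophin, Sntb2, at 26.8 and 16.2 CPM (log2 ratio 0.70, 0.02 to 1.45). It was mainly a rod transcript, at 173 and 170 CPM there, and rod markers were also higher in the Müller barcodes of Muller. Their part in the Sntb2 ratio was not tested.

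Of 26 genes for dystroglycan ligands and for the enzymes that glycosylate dystroglycan, 23 were measured in Müller barcodes and 5 were highest there in both libraries, a share near the 17.7% of all measured genes. The most abundant were the dolichol-phosphate mannose synthase subunits Dpm1 (172 and 182 CPM) and Dpm3 (65.3 and 71.6 CPM), the glucuronyltransferase B4gat1 (64.8 and 56.0 CPM) and the xylosyltransferase Rxylt1 (54.1 and 53.0 CPM). Between libraries 1 was at least 1.5-fold higher in Muller and 4 lower, beside 6.33% and 5.95% of all measured genes (median log2 ratio -0.01). Among the lower were the laminin chains Lama5 (17.7 and 29.5 CPM, log2 ratio -0.73, -1.42 to -0.07) and Lama1 (6.96 and 13.2 CPM, -0.88, -2.04 to 0.13). The dystroglycan mannosyltransferase gene Pomt1, named after its values were seen, was also lower. The photoreceptor synapse ligand pikachurin, Egflam, was at 5.89 and 4.81 CPM in Müller barcodes and 82.7 and 104 CPM in rods.

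Of 23 other genes for potassium and water transport, 15 were measured and 8 were highest in Müller barcodes in both libraries, again beside 17.7% of all measured genes. The tweety family gene Ttyh1 had 1063 and 1210 CPM, a level like that of Aqp4. The astroglial membrane protein gene Mlc1 had 415 and 473 CPM, and the sodium pump subunit Atp1b2 had 312 and 338 CPM. The potassium channel gene Kcnk1 (TWIK-1) had 284 and 333 CPM, above Kcnj10 in both libraries. Kcnj16, which encodes the Kir5.1 subunit that can pair with Kir4.1, had 0 UMIs in the Müller barcodes of both libraries, which allows up to 1.61 and 1.81 CPM at the level of 3 counts. The water channel Aqp1 had 5.35 and 4.81 CPM in Müller barcodes against 79.6 and 93.9 in rods, the reverse of the order of Aqp4.

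Of these 15 genes, 3 were at least 1.5-fold higher and 1 at least 1.5-fold lower in Muller, beside the same 6.33% and 5.95% (median log2 ratio -0.12). The pump subunit Atp1b1 had 25.7 and 4.21 CPM (log2 ratio 2.45, 1.46 to 4.00) and the calcium-activated potassium channel Kcnma1 21.4 and 3.61 CPM (2.38, 1.32 to 4.10). Both were mainly neuronal transcripts: Atp1b1 had 1023 and 834 CPM in amacrine and Kcnma1 770 and 720 CPM in bipolar barcodes, and both were also higher in the rods of Muller, at 40.9 against 2.04 and 41.1 against 6.76 CPM. The part of neuronal RNA in these ratios was not tested. The osmosensitive channel Trpv4 was lower, at 4.82 and 9.03 CPM from 9 and 15 UMIs.

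Over the 3 lists, 5 of 47 measured genes were at least 1.5-fold higher and 5 lower in Muller, where 6.33% and 5.95% of all measured genes were. By Malat1 share, 26 of 37 measured genes were at least 1.5-fold higher in Malat1-rich barcodes of Muller and 3 lower, beside 39% and 19.8% of all genes (median log2 ratio 1.15). In MullerControl 23 of 33 were higher and 2 lower, beside 47% and 15.8% of all genes, with a median of 1.03. Agrn, which encodes the dystroglycan ligand agrin, had ratios of 2.36 (1.17 to 5.07) and 1.35 (0.29 to 3.27), and Kcnk1 of 1.70 and Mlc1 of 1.19 in Muller. Atp1b1, at -1.77 (-2.69 to -0.81) in Muller, was higher in Malat1-poor barcodes there.

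**Figure D5:**
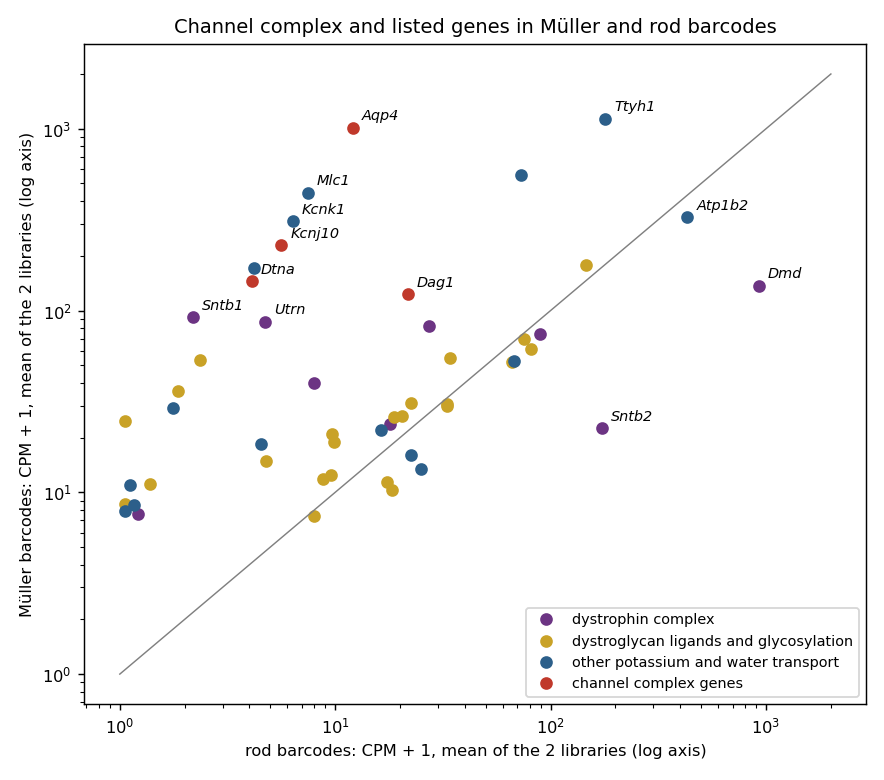
Mean over the 2 libraries of CPM + 1 in rod barcodes (horizontal, log axis) and in Müller barcodes (vertical, log axis) for the 4 channel complex genes (red) and the measured genes of the 3 lists. Points above the grey line of equal levels are higher in Müller barcodes. Aqp4, Kcnj10, Dtna, Mlc1, Kcnk1, Sntb1 and Utrn lie far above it, and Dmd and Sntb2 lie below.

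The plot of Müller against rod levels shows Aqp4, Kcnj10 and Dtna in 1 group with Mlc1 and Kcnk1. Dag1 lies closer to the line, and the scaffold genes Dmd and Sntb2 lie on the rod side of it. Only rods are compared there: Kcnk1, like Dtna, was also found in amacrine barcodes, at 94.9 and 95.1 CPM.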

How the data were processed

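Retinal tdTomato-positive cells of 2 libraries were analysed. The deposited matrices hold raw UMI counts per gene and barcode, and per the file headers Cell Ranger 4.0.0 made them. Seurat 4.0.5, mm10 and GRCh38 stand in the submitters' processing notes, with no role given. The smallest barcode total was 500 UMIs. Barcodes with fewer than 300 genes or over 20% mitochondrial UMIs were dropped. Per library the barcodes with the highest Scrublet scores (scanpy 1.11.5) were removed, 0.8% for each 1000 barcodes, which left out 1130 in Muller and 866 in MullerControl. Scrublet's automatic threshold called 2 and 0 barcodes, which did not work.

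A barcode entered a class where the class's markers passed a minimum share of UMIs (for Müller 1% and 5 of 17 markers) and that share, divided by its minimum, was at least 2 times that of any other class. The minima were set after marker shares had been seen. Within 20% of the Müller minimum lay 158 and 40 barcodes, of which 5 and 2 were in the class. UMIs were summed by class and library and divided by all UMIs of the class (by all but Malat1 for the Malat1 bins). Levels have exact Poisson intervals and shares of barcodes have Clopper-Pearson intervals, all at 95%. Log2 ratios have 1 count added to each sum and an exact conditional binomial interval. These intervals cover counting error only, and the ratio script was tested on simulated data. A level at 0 UMIs was limited by 3 counts. The Malat1-middle bin lies between 2% and 10%.

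Named were the 4 genes, and of each list the 4 measured genes with the highest Müller level and the 2 with the highest and 2 with the lowest ratio between libraries, and the 5 nearest profiles per gene. Kcnk1, Kcnj16, Aqp1, Egflam, Agrn and Pomt1 were named after their values were seen. A few genes the rule names are not reported here. The genes and lists were chosen with earlier results of these data known. Of the 32285 gene identifiers, 32235 were in the GENCODE annotation. Python 3.11.15, numpy 2.4.6, scipy 1.17.1 and pandas 2.3.3 were used.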

Additional observations from a re-analysis of the deposited data

Results flagged for a closer look

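Kcnj10 differed between the libraries in opposite directions in bipolar and Müller barcodes. The log2 ratio of Muller over MullerControl was 3.34 in bipolar barcodes, with 1 count added to each sum, and -0.36 in Müller barcodes. The bipolar value came from 26 UMIs in 3050 barcodes against 0 in 922, which is at least 3.24-fold higher when the 0 is set to 3 counts over the class. In the same bipolar barcodes the glial transcripts Glul, Rlbp1 and Slc1a3 together were also higher in Muller, at 262 against 141 CPM. Aqp4 was higher there too, at 13.7 against 6.02 CPM. The part of free glial RNA in the bipolar Kcnj10 counts was not tested, and neither was the difference between the 2 classes.

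The barcodes left out by the filters and as doublets also held UMIs of all 4 genes. Kcnj10 had 94 in Muller and 102 in MullerControl, and Aqp4 had 345 and 276. Dag1 had 123 and 134, and Dtna had 120 and 98. Most Aqp4 UMIs among them lay in barcodes removed as doublets, 334 and 250.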

How the results depend on the processing

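No paired analysis was possible because there is 1 library per group, the libraries share a single replicate number and no result comes from a test. Of 52 alternative values of the 4 genes' ratios between libraries, 42 lay within the counting interval of the reported value and 10 did not, and 6 of the 52 lay above 0. Chosen after seeing the data, the ratio per Müller marker UMI was -0.076 for Kcnj10, 0.21 for Aqp4, 0.088 for Dag1 and 0.080 for Dtna. Thinned to 1000 UMIs per barcode, it was 0.22 for Dag1 and 0.079 for Dtna. Within Malat1-middle barcodes it was -0.79 for Kcnj10, -0.23 for Aqp4 and -0.77 for Dag1, and within Malat1-poor ones -0.25 for Aqp4. Kcnj10 stayed below 0 in all 13 of its settings.

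All 88 alternative ratios of Malat1-rich over Malat1-poor lay above 0, from 0.20 to 3.04, and 83 lay within the counting interval. Outside it were, at equal depth, Kcnj10 (0.20) and Aqp4 (1.38) in Muller and Dtna in MullerControl (3.04), Aqp4 in Muller with Malat1 in the denominator (1.46), and Aqp4 in MullerControl per Müller marker UMI (1.08). The count of listed genes at least 1.5-fold higher in Muller was 5, and it was 3 with a stricter gate, 2 with at least 50 UMIs, 12 with no minimum and 1 after thinning. The count at least 1.5-fold lower was 5, and it was 3 without doublet removal, with clusters in place of the gate, with a looser gate, with at least 50 UMIs and after thinning. The cause of these moves was not tested. With 1 library per group, spread between animals cannot be told apart from the group difference. In the Malat1-poor barcodes Dag1 and Dtna rest on 10 to 15 UMIs per library, so the size of their steps is loosely fixed.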
